A study of Homo sapiens with 16 samples.

Results

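The genes described here encode the aminoacyl-tRNA synthetases, the enzymes that charge each tRNA with its amino acid. They were chosen by name from the GENCODE symbols of the counted Ensembl genes, and 35 of the 60107 genes listed in every library belong to them, 19 cytosolic and 16 mitochondrial. The rule used names and no measured value, although it was set with earlier results of these data known. All 35 were measured in human U2OS-TR cells, an osteosarcoma line that carries the tetracycline repressor, and in a line made from it.

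The derived line, U2OS-TR/ΔN-RNMT, is a single clone with a doxycycline-inducible ΔN-RNMT transgene driven by a CMV promoter with tetracycline operators. RNMT is the enzyme that methylates the mRNA cap, and ΔN-RNMT is a truncated version with a mutated cofactor site that is kept in the cytoplasm. Its 5 uninduced libraries had no doxycycline and its 5 induced libraries had 1 μg/ml for 24 h, begun 48 h after the cells were split. The parental line without the transgene gave 3 libraries with no doxycycline and 3 libraries at the same dose and time. All 16 libraries were QuantSeq REV tag libraries of cytoplasmic RNA, in which each tag lies next to the poly(A) tail. They were compared to ask whether RNA levels changed when ΔN-RNMT was induced, and whether doxycycline by itself changed them in cells without the transgene.

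Aminoacyl-tRNA synthetases fall into 2 structural classes, called I and II, with unrelated catalytic folds. Most enzymes of the cytosol and of the mitochondrion have separate genes, all in the nucleus, although KARS1 and GARS1, grouped here as cytosolic, encode both forms. In the cytosol 7 of the enzymes measured here (EPRS1, IARS1, KARS1, LARS1, MARS1, QARS1 and RARS1) sit in the multi-synthetase complex around the scaffold proteins AIMP1, AIMP2 and EEF1E1. Many cytosolic synthetase genes are known targets of ATF4, a transcription factor induced when amino acids are scarce, which binds a composite element in their promoters.

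The core of that element, TGATGCAA, was searched on both strands in RefSeq promoter windows (GRCh38.p14) that run from 250 bases before to 50 bases after each gene's start. Windows were matched for 30 of the 35 genes. LARS1, VARS1, YARS1, AARS2 and VARS2 had no window. The core was present in 6 of the 16 cytosolic windows and 0 of the 14 mitochondrial windows, against 0.866% of all 35116 windows. The 6 matches are printed because they mark which windows hold the core and can be read beside the fold changes. The core is in capitals and on the strand that reads it forwards.
AARS1, chr16:70289675-70289704, plus strand: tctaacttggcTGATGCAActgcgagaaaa
CARS1, chr11:3057407-3057436, plus strand: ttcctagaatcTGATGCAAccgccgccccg
IARS1, chr9:92293692-92293721, plus strand: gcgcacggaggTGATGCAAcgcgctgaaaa
MARS1, chr12:57488053-57488082, minus strand: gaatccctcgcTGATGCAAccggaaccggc
NARS1, chr18:57621804-57621833, minus strand: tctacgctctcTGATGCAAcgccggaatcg
TARS1, chr5:33440956-33440985, minus strand: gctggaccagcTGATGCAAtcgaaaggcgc
A looser form, TGATGNAA, was also in the windows of GARS1 and YARS2, and in 3.62% of all windows. Every window that holds the stricter core also holds the looser one. A match says only that these letters are in the window. RefSeq starts need not be the GENCODE starts, and the MARS1 match lies within its GENCODE gene, which begins at chr12:57475445.

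The transgene libraries held 12527183 to 23251834 gene counts each and the parental libraries 1473286 to 3214808. RNMT was higher in every induced library, at 266 to 458 CPM (tag counts per library scaled to a common total, with TMM library sizes), than in any uninduced library, at 55.6 to 112 CPM (log2 fold change 2.22, edgeR adjusted p = 0.00805). The 112 CPM was in uninduced 5, beside 55.6 to 74.6 CPM in uninduced 1 to 4. Over all tested genes other than the members, however, the first principal component (78.9% of the variance) did not sort the libraries by label alone. Uninduced 5 had a score of 33.9, on the side of induced 1, 3, 4 and 5 at 57.4 to 71.3. Induced 2 had -13.5, on the side of uninduced 1 to 4 at -101 to -45.2. Each called synthetase gene and each count of members is therefore given with and without these 2 libraries, and the part of this split in each result was not tested. Among 7 osteoblast lineage markers COL1A1, SPARC, RUNX2, VIM and ALPL had counts in every transgene library, whereas COL1A2 was at 0 in every uninduced library and BGLAP in every library. RUNX2 and VIM were higher in the induced libraries (log2 fold changes of 1.16 and 1.44). The summed level of the 7 was 258 to 636 CPM in uninduced and 504 to 956 CPM in induced libraries. 6 markers of blood, epithelial, liver and endothelial cells summed to 5.32 to 12.9 CPM and 8.23 to 19.9 CPM, and ALB was at 0 throughout.

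Induction of ΔN-RNMT went with changes in both directions among the synthetase genes. Of the 35, 5 were higher and 9 lower in induced than in uninduced libraries, and IARS2, the mitochondrial isoleucyl-tRNA synthetase, had the largest difference. The edgeR quasi-likelihood test with Benjamini-Hochberg adjustment over 13038 genes called 20% of all genes higher and 19.8% lower. The 14 called members were 40% of the 35, against 39.8% of all genes tested, so the share called was near the background. In bulk libraries such as these, fewer cells of a type and less RNA per cell cannot be told apart.

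Among the 19 cytosolic genes 2 were called higher and 5 lower, which is 10.5% and 26.3% of them. Their median log2 fold change was -0.32 (range -1.12 to 0.99), with 6 above 0. Among the 16 mitochondrial genes 3 were called higher and 4 lower (18.8% and 25%), with a median of 0.20 (range -1.16 to 2.65) and 9 above 0. The median of all genes tested was 0.04. With uninduced 5 and induced 2 left out, the cytosolic counts were 3 higher and 11 lower and the mitochondrial counts 6 higher and 5 lower, with medians of -0.44 and 0.31. In that fit 4380 of 12956 genes were called higher and 3949 lower. With 1 surrogate variable in the edgeR fit none of the 35 was called (adjusted p between 0.113 and 0.986, although 13 had an unadjusted p below 0.05). The medians were 0.00708 and -0.0241, and RNMT was the 1 gene of 13038 that was called.

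**Figure D1:**
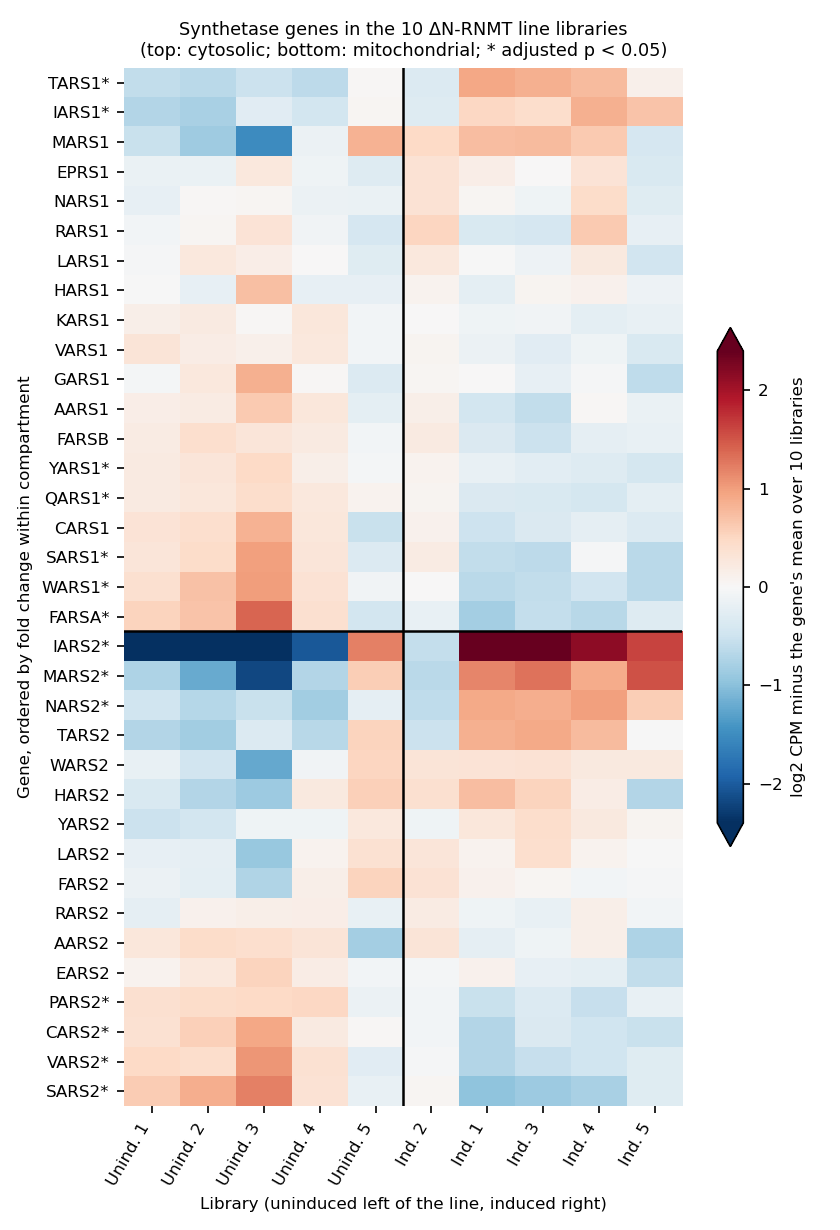
Each row is 1 synthetase gene and each column 1 library of the ΔN-RNMT line. Colour gives log2 CPM minus the gene's mean over the 10 libraries, and values beyond the ends of the scale take its end colours. Asterisks mark the 14 genes with an adjusted p below 0.05. Uninduced 5 and induced 2 stand on either side of the vertical line and carry intermediate or opposite colours in many rows, with IARS2 at 66.8 CPM in uninduced 5 and 19.3 CPM in induced 2.

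TARS1, which charges tRNA with threonine, was the cytosolic gene with the largest rise. Its levels were 90.0, 86.7, 94.3, 87.9 and 138 CPM in uninduced 1 to 5 and 256, 108, 244, 230 and 147 CPM in induced 1 to 5. Induced 2 lay below uninduced 5, so the groups overlapped through these 2 libraries. This was a log2 fold change of 0.99 (SE 0.25, adjusted p = 0.0177, edgeR), and 1.28 without them.

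IARS1, the cytosolic isoleucyl-tRNA synthetase and a member of the multi-synthetase complex, was the other cytosolic gene that rose. Uninduced 1 to 5 had 3.61, 3.45, 4.89, 4.31 and 6.07 CPM, and induced 1 to 5 had 8.28, 4.75, 7.87, 10.6 and 9.44 CPM. Only induced 2 fell inside the uninduced range. On the log2 scale the difference was 0.87 (SE 0.24, adjusted p = 0.0203, edgeR), and 1.15 without the 2 libraries. The adjusted p passed 0.05, at 0.0505 to 0.0547, when uninduced 1, uninduced 2, induced 1 or induced 4 was left out, with log2 fold changes of 0.76 to 0.87.

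FARSA, the alpha subunit of the phenylalanyl-tRNA synthetase, had the largest cytosolic fall in the fit to all libraries. It was at 63.7, 70.6, 115, 57.4 and 32.1 CPM in uninduced 1 to 5 and at 24.8, 38.9, 29.6, 27.6 and 35.2 CPM in induced 1 to 5. Uninduced 5 lay inside the induced range. edgeR gave a log2 fold change of -1.12 (SE 0.28, adjusted p = 0.0179), and -1.39 without the 2 libraries. With GC offsets FARSA was at -0.64, less than the -0.96 of WARS1, and with GC offsets and the replicate block it was not called (-0.58, adjusted p = 0.0660). Its partner subunit FARSB had a log2 fold change of -0.41 and was not called (adjusted p = 0.0625), but was called at -0.60 without the 2 libraries.

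WARS1, the tryptophanyl-tRNA synthetase, fell from 24.7, 30.7, 38.1, 24.0 and 17.8 CPM in uninduced 1 to 5 to 12.1, 19.0, 12.6, 13.8 and 12.2 CPM in induced 1 to 5. Again the overlap came from induced 2, which exceeded uninduced 5. This was a log2 fold change of -0.96 (SE 0.22, adjusted p = 0.0175, edgeR), and -1.22 without them.

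SARS1, the cytosolic seryl-tRNA synthetase, was at 137, 151, 221, 136 and 88.7 CPM in uninduced 1 to 5. Induced 1 to 5 had 73.7, 128, 72.4, 109 and 71.0 CPM. Induced 2 and induced 4 lay above uninduced 5. On the log2 scale the difference was -0.69 (SE 0.25, adjusted p = 0.0477, edgeR), and -0.99 without the 2 libraries. It was not called when any 1 library other than uninduced 5 or induced 2 was left out (-0.76 to -0.52, adjusted p between 0.0679 and 0.109).

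QARS1, the glutaminyl-tRNA synthetase of the multi-synthetase complex, was the cytosolic gene whose groups did not overlap. Uninduced 1 to 5 had 146, 152, 168, 150 and 133 CPM and induced 1 to 5 had 99.0, 132, 97.7, 93.7 and 107 CPM. The gap between uninduced 5 and induced 2 was small. edgeR gave a log2 fold change of -0.50 (SE 0.14, adjusted p = 0.0212), and -0.64 without these 2 libraries. Non-overlap in the lower direction was found for 4.22% of all genes tested, and in the higher direction, where no member met it, for 3.08%. QARS1 was not called when uninduced 2, induced 1, induced 3 or induced 4 was left out (-0.51 to -0.46, adjusted p between 0.0521 and 0.0564).

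YARS1, the cytosolic tyrosyl-tRNA synthetase, was at 93.3, 98.4, 111, 88.2 and 77.1 CPM in uninduced 1 to 5 and at 70.5, 84.3, 67.4, 64.4 and 59.8 CPM in induced 1 to 5. Its groups overlapped through uninduced 5 and induced 2. The log2 fold change was the smallest of those called, at -0.43 (SE 0.15, adjusted p = 0.0383, edgeR), and -0.58 without the 2 libraries. The call was lost when any 1 library other than uninduced 5 or induced 2 was left out, with log2 fold changes of -0.46 to -0.38 and adjusted p between 0.0608 and 0.0871.

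The other 12 cytosolic genes were not called. MARS1, the methionyl-tRNA synthetase, had the highest of their log2 fold changes, 0.72 (SE 0.38, adjusted p = 0.140, edgeR). Its levels were 63.3, 51.0, 32.3, 83.1 and 163 CPM in uninduced 1 to 5 and 154, 129, 156, 141 and 69.0 CPM in induced 1 to 5. Uninduced 5 had the highest level of all and induced 5 lay among uninduced 1 to 4. MARS1 was called at 1.16 (adjusted p = 0.00532) without uninduced 5 and induced 2. Its 3′ end (chr12:57475445-57517569, plus strand, GENCODE, GRCh38) overlaps that of DDIT3 on the minus strand (chr12:57516588-57521737), so the 2 genes can be told apart only by strand, and the use of strand in counting is not given in the sources used here. CARS1 had a log2 fold change of -0.57 (adjusted p = 0.0613) and was called at -0.82 without the 2 libraries. Besides FARSB, the rest were AARS1 at -0.41, GARS1 at -0.34, VARS1 at -0.32, KARS1 at -0.24, HARS1 at -0.09, LARS1 at -0.02, RARS1 at 0.12, NARS1 at 0.20 and EPRS1 at 0.20. Of these AARS1 (-0.60), GARS1 (-0.50), VARS1 (-0.44) and KARS1 (-0.32) were called lower without uninduced 5 and induced 2.

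**Figure D2:**
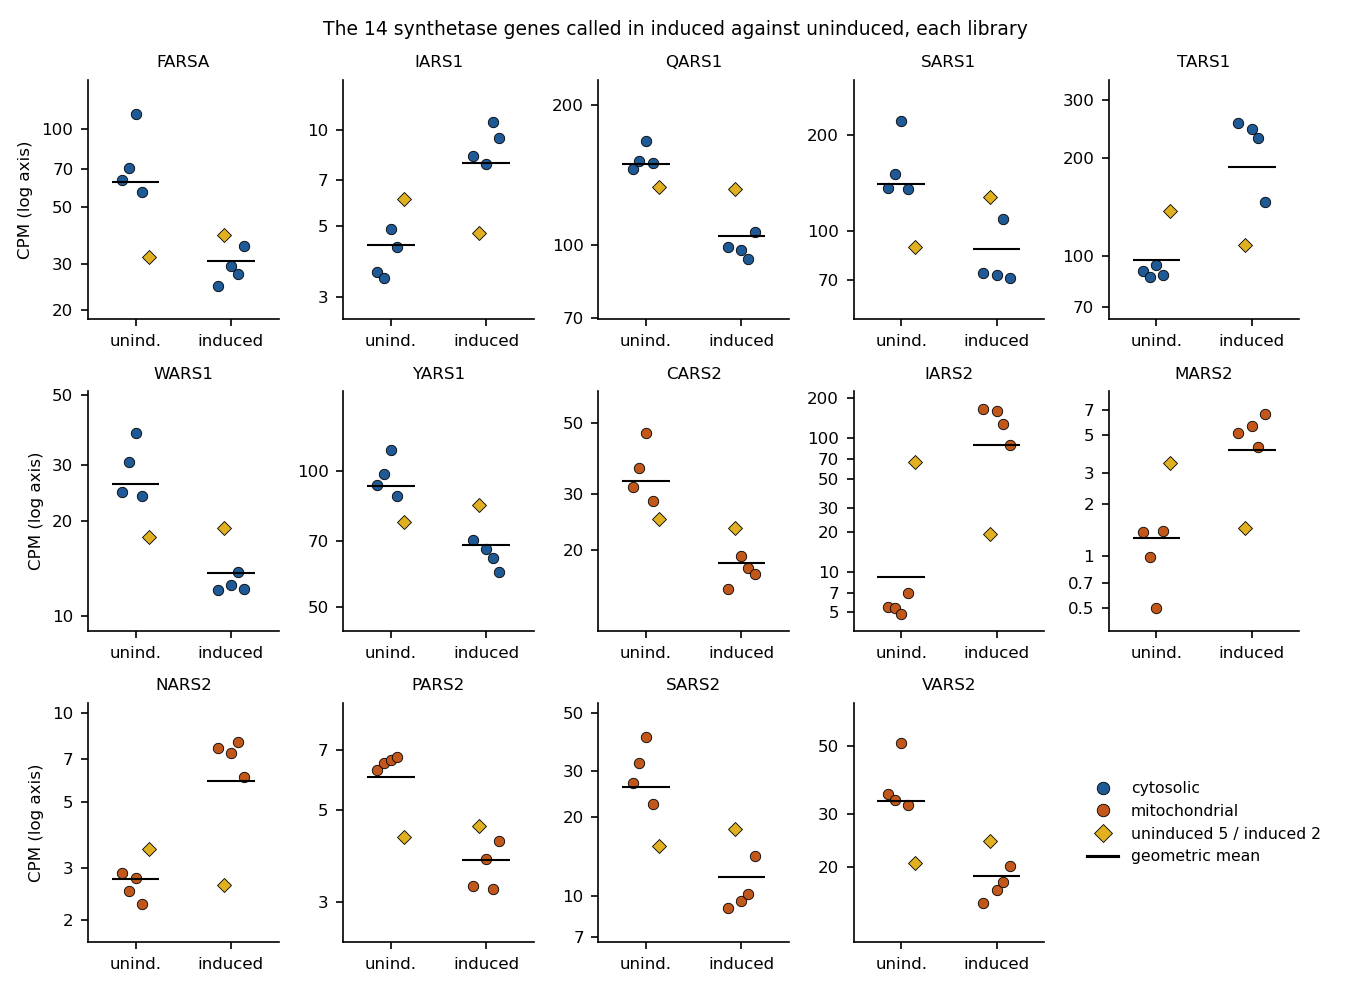
Each panel is 1 of the 14 called synthetase genes. The y axis is CPM on a log axis, each point is 1 library (5 uninduced and 5 induced), and the horizontal line is the geometric mean of the group. Yellow diamonds are uninduced 5 and induced 2. QARS1 and CARS2 are the panels in which the groups do not overlap.

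IARS2, the mitochondrial isoleucyl-tRNA synthetase, was at 5.43, 5.38, 4.89 and 7.02 CPM in uninduced 1 to 4 and at 66.8 CPM in uninduced 5. Induced 1, 3, 4 and 5 had 166, 161, 128 and 88.9 CPM, and induced 2 had 19.3 CPM. Both libraries that stand apart lay between the other 8. This was a log2 fold change of 2.65 (a 6.28-fold difference, SE 0.84, adjusted p = 0.0301, edgeR), and 4.57 without the 2 libraries. The call was lost when uninduced 1, 2, 3 or 4 or induced 1, 3 or 4 was left out, with log2 fold changes of 2.42 to 2.60 and adjusted p between 0.0571 and 0.0673.

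The summed level of the mitochondrial genes moved with IARS2. Over the 16 genes it was 226 to 324 CPM in uninduced libraries (median 244) and 251 to 406 CPM in induced libraries (median 353). IARS2 made up 1.85% to 20.6% of it in the former and 7.69% to 41.3% in the latter. Without IARS2 the sums were 221 to 259 CPM (median 237) and 202 to 245 CPM (median 231), and the groups overlapped. As a share of gene counts without TMM scaling, the cytosolic genes took 0.117% to 0.138% in uninduced and 0.116% to 0.154% in induced libraries. These shares are on another scale than the CPM sums. On the TMM scale the median cytosolic log2 fold change was -0.32.

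MARS2, the mitochondrial methionyl-tRNA synthetase and a gene with 1 exon (chr2:197705369-197708395, plus strand), was at 1.37, 0.99, 0.50, 1.40 and 3.43 CPM in uninduced 1 to 5. It was at 5.15, 1.46, 5.65, 4.24 and 6.59 CPM in induced 1 to 5. Induced 2 was below uninduced 5 and close to uninduced 1 and 4. On the log2 scale the difference was 1.56 (SE 0.48, adjusted p = 0.0284, edgeR), and 2.31 without the 2 libraries. It was not called when any 1 library other than uninduced 5 or induced 2 was left out (1.33 to 1.59, adjusted p between 0.0505 and 0.0685).

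NARS2, the mitochondrial asparaginyl-tRNA synthetase, was at 2.89, 2.51, 2.78, 2.27 and 3.47 CPM in uninduced 1 to 5 and at 7.61, 2.63, 7.36, 8.02 and 6.12 CPM in induced 1 to 5. Every induced library except induced 2 lay above every uninduced library. edgeR gave a log2 fold change of 1.18 (SE 0.28, adjusted p = 0.0175), and 1.47 without the 2 libraries.

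SARS2, the mitochondrial seryl-tRNA synthetase, had the largest fall of all members in the fit to all libraries. Uninduced 1 to 5 had 27.0, 32.1, 40.4, 22.4 and 15.5 CPM and induced 1 to 5 had 9.02, 18.1, 9.64, 10.2 and 14.3 CPM. Only induced 2 lay above the lowest uninduced library, which was uninduced 5. With GC offsets its log2 fold change was -0.71, smaller than the -0.96 of WARS1. This was a log2 fold change of -1.16 (SE 0.28, adjusted p = 0.0175, edgeR), and -1.49 without them.

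CARS2, the mitochondrial cysteinyl-tRNA synthetase, was the mitochondrial gene whose groups did not overlap. Uninduced 1 to 5 had 31.6, 36.3, 46.5, 28.5 and 25.1 CPM and induced 1 to 5 had 15.1, 23.5, 19.2, 17.6 and 16.9 CPM. Uninduced 5 and induced 2 were again next to each other. On the log2 scale the difference was -0.86 (SE 0.19, adjusted p = 0.0175, edgeR), and -1.05 without them.

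VARS2, the mitochondrial valyl-tRNA synthetase, was at 34.7, 33.2, 51.5, 31.9 and 20.7 CPM in uninduced 1 to 5 and at 15.2, 24.4, 16.8, 17.9 and 20.2 CPM in induced 1 to 5. Its log2 fold change was -0.86 (SE 0.23, adjusted p = 0.0189, edgeR), and -1.11 without the 2 libraries, through which the groups overlapped. The adjusted p was 0.0507 to 0.0520 without induced 1 or induced 4 (-0.84 to -0.79). PARS2, the mitochondrial prolyl-tRNA synthetase, was at 6.25, 6.49, 6.61, 6.73 and 4.30 CPM in uninduced 1 to 5 and at 3.28, 4.56, 3.81, 3.23 and 4.22 CPM in induced 1 to 5. The 4 uninduced libraries other than uninduced 5 were within a narrow range above all induced libraries. edgeR gave a log2 fold change of -0.67 (SE 0.18, adjusted p = 0.0208), and -0.85 without the 2 libraries. The adjusted p was 0.0513 to 0.0555 without uninduced 2, induced 1, induced 3 or induced 4 (-0.66 to -0.61).

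The other 9 mitochondrial genes were not called. TARS2, the mitochondrial threonyl-tRNA synthetase, had the highest log2 fold change of these, 0.80 (SE 0.33, adjusted p = 0.0702, edgeR). Its levels were 10.2, 9.24, 13.1, 10.5 and 24.0 CPM in uninduced 1 to 5 and 29.8, 11.6, 31.1, 27.8 and 16.4 CPM in induced 1 to 5. It was called at 1.29 without uninduced 5 and induced 2. The rest were WARS2 at 0.47, HARS2 at 0.42, YARS2 at 0.34, LARS2 at 0.30, FARS2 at 0.11, RARS2 at -0.01, AARS2 at -0.25 and EARS2 at -0.38. Of these WARS2 (0.69) and YARS2 (0.52) were called higher and EARS2 (-0.48) lower without the 2 libraries. HARS1 and HARS2, the cytosolic and mitochondrial histidyl-tRNA synthetases, overlap head to head on chromosome 5, and neither was called.

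**Figure D3:**
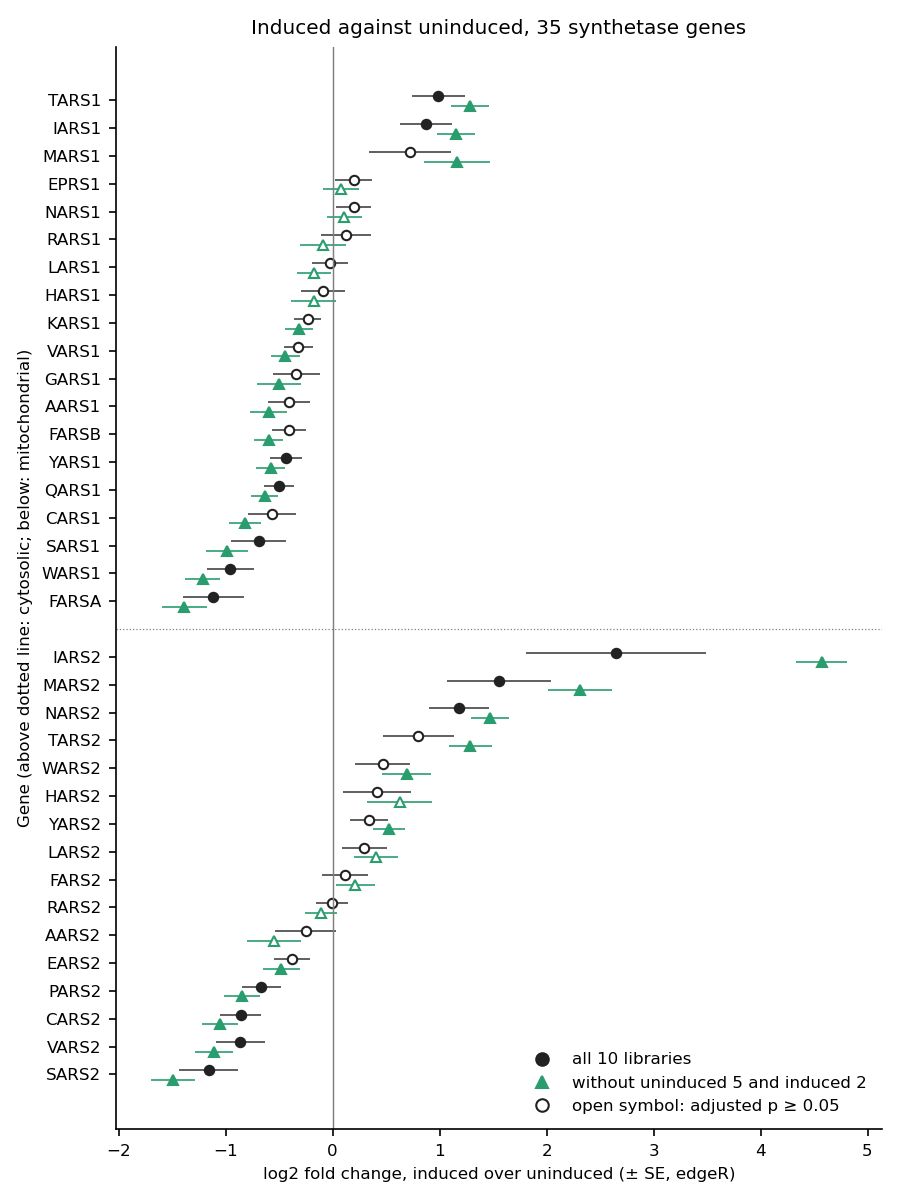
Log2 fold change of induced over uninduced for the 35 synthetase genes, with bars for the standard error. Black circles are the fit to all 10 libraries and green triangles the fit without uninduced 5 and induced 2, and filled symbols have an adjusted p below 0.05. The triangles lie farther from 0 for every called gene, and 25 genes are filled against 14 of the circles. Of all genes tested, 8329 of 12956 were called in the fit without the 2 libraries and 5183 of 13038 with them.

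Uninduced 5 and induced 2 were read gene by gene against the other 4 libraries of each group. On the log2 CPM scale uninduced 5 was nearer to the mean of the other 4 induced than of the other 4 uninduced libraries for 29 of the 35 members (82.9%), and for 72.1% of all genes tested. Induced 2 was nearer to the mean of the other 4 uninduced libraries for 22 members (62.9%), and for 53.4% of all genes. All 14 called members were also called when both were left out, as were 5158 of the 5183 genes called with all libraries. The 2 libraries were left out for lying between the groups, so the wider differences without them are no separate support.

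The 2 genes for the same amino acid were compared in 13 pairs. The log2 fold changes had the same sign in 8 pairs. In 2 of these both genes were called, IARS1 with IARS2 higher (isoleucine) and SARS1 with SARS2 lower (serine). Of all 13038 genes tested, 6795 had a log2 fold change above 0, and 20% were called higher and 19.8% lower. Whether the pairs were alike more often than other genes was not tested. For tryptophan the cytosolic WARS1 was called lower at -0.96 and the mitochondrial WARS2 was not called at 0.47. For tyrosine the values were -0.43 and 0.34, with YARS1 called and YARS2 not. Without uninduced 5 and induced 2 both genes of these 2 pairs were called, in opposite directions (WARS1 -1.22 and WARS2 0.69, YARS1 -0.58 and YARS2 0.52). In that fit both genes were called lower for cysteine (CARS1 -0.82 and CARS2 -1.05) and valine (VARS1 -0.44 and VARS2 -1.11). Both were called higher for methionine (MARS1 1.16 and MARS2 2.31) and threonine (TARS1 1.28 and TARS2 1.29). The isoleucine and serine pairs kept their calls and directions. Of 12956 genes tested, 4380 were called higher in that fit and 3949 lower. A difference within a pair was not tested.

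By class, with 20% of all genes called higher and 19.8% lower, 3 of 18 class I genes were called higher and 5 lower (median log2 fold change -0.02), and 2 of 16 class II genes higher and 4 lower (median -0.24). EPRS1, whose cytosolic protein holds a domain of each class, was left out of both. Of the 7 multi-synthetase complex genes IARS1 was called higher and QARS1 lower, with a median of 0.12. Without uninduced 5 and induced 2 the class I counts were 6 higher and 8 lower, the class II counts 3 and 8, and the complex counts 2 and 2. That fit called 4380 of 12956 genes higher and 3949 lower. Of the scaffold genes EEF1E1 was higher at 14.7 to 56.4 CPM in uninduced and 30.7 to 89.8 CPM in induced libraries (log2 fold change 1.47, SE 0.41, adjusted p = 0.0210, edgeR). AIMP1 at 0.40 and AIMP2 at 0.45 were not called. Without uninduced 1, uninduced 2, induced 1 or induced 3 the adjusted p of EEF1E1 was 0.0515 to 0.0538 (1.34 to 1.38). Without uninduced 5 and induced 2 all 3 scaffold genes were called higher, EEF1E1 at 2.17, AIMP2 at 0.84 and AIMP1 at 0.63.

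Of the 6 genes with the element core in their promoter windows, TARS1 and IARS1 were called higher, and AARS1 (-0.41), CARS1 (-0.57), MARS1 (0.72) and NARS1 (0.20) were not called. Without uninduced 5 and induced 2 TARS1 (1.28), IARS1 (1.15) and MARS1 (1.16) were called higher, AARS1 (-0.60) and CARS1 (-0.82) lower, and NARS1 (0.11) was not called. Of 12 genes of the amino acid response, 0 were called higher and 4 lower, or 33.3% lower beside 19.8% of all genes. Their median log2 fold change was -0.47 (range -1.08 to 1.09), with 3 above 0. The 4 called genes were ATF4 itself (-1.07), ASNS (-1.08), which makes asparagine, DDIT3 (-0.66) and SESN2 (-0.64). SESN2 was at 71.9 to 98.8 CPM in uninduced and 49.6 to 71.7 CPM in induced libraries and did not overlap. ATF4 was not called when uninduced 1, uninduced 2, induced 1, induced 3 or induced 4 was left out (-1.12 to -1.001, adjusted p between 0.0519 and 0.0634). DDIT3 was not called without any 1 of 7 libraries (-0.69 to -0.54, adjusted p between 0.0533 and 0.0759), the 3 exceptions being uninduced 3, uninduced 5 and induced 2. With GC offsets SESN2 was at -0.25 (adjusted p = 0.0935) and ATF4 at -0.89 (adjusted p = 0.0508), and neither was called. Leaving out uninduced 5 and induced 2 gave 2 genes called higher, PSAT1 at 1.72 and SLC3A2 at 0.78. It gave 7 called lower, with ATF4 at -1.39 and SESN2 at -0.81. That fit called 4380 of 12956 genes higher and 3949 lower.

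Genes that act on tRNA before or after charging were grouped by function. Of 7 genes for tRNA editing, maturation and export, 3 were called higher and 1 lower, which is 42.9% and 14.3% of the list beside 20% and 19.8% of all genes. XPOT, which exports tRNA from the nucleus, was at 6.09 to 7.13 CPM in uninduced and 6.35 to 32.7 CPM in induced libraries, with induced 2 the lowest of the latter (log2 fold change 1.48, adjusted p = 0.0175). TRNT1, which adds the CCA end to tRNA, was higher by 1.17 and SEPSECS, which makes selenocysteinyl-tRNA, by 1.29. AARSD1, an editing protein that hydrolyses misacylated tRNA, was lower (log2 fold change -1.05), at 3.56 to 7.83 CPM against 1.94 to 4.84 CPM. It was not called without uninduced 1, uninduced 2, induced 1, induced 3, induced 4 or induced 5 (-1.01 to -0.91, adjusted p between 0.0531 and 0.0654). DTD1, a D-aminoacyl-tRNA deacylase, had 1.77 and was not called (adjusted p = 0.0569). DTD2 and PSTK were not called either. Leaving out uninduced 5 and induced 2 gave 6 genes called higher and 1 lower, with XPOT at 1.69, DTD1 at 3.29 and AARSD1 at -1.51. Of 12956 genes tested, 4380 were called higher and 3949 lower in that fit. XPOT was not called with GC offsets and the replicate block (0.95, adjusted p = 0.0609).

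Mitochondria lack a glutaminyl-tRNA synthetase and make that tRNA with the amidotransferase GATB, GATC and QRSL1. GATB was called lower and its groups did not overlap, at 12.8 to 32.1 CPM in uninduced and 9.31 to 12.2 CPM in induced libraries (log2 fold change -1.04, SE 0.22, adjusted p = 0.0175, edgeR). GATC at -0.24, QRSL1 at 0.41 and MTFMT, which formylates the initiator tRNA, at 1.41 were not called. All 4 were called without uninduced 5 and induced 2, GATB at -1.23, GATC at -0.35, QRSL1 at 0.54 and MTFMT at 2.63. That fit called 8329 of 12956 genes in either direction.

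Members with a higher GC content in their transcripts had lower fold changes. Across the 35 genes Pearson's r between the GC percentage of the canonical transcript and the log2 fold change was -0.51 and Spearman's rho -0.52, and across 12922 genes tested they were -0.37 and -0.43. The genes share the same 10 libraries and are not independent, so these are given as a description. IARS2 (43.5% GC), NARS2 (43.9%), TARS1 (42.8%) and IARS1 (43.3%) were among the called members that rose, and SARS2 (61.4%), FARSA (61.3%) and VARS2 (59.9%) among those that fell. With offsets for GC content QARS1 (-0.27, adjusted p = 0.0790), SARS1 (-0.55, 0.0902), YARS1 (-0.35, 0.0680) and VARS2 (-0.45, 0.0604) were no longer called, whereas IARS2 was at 2.495 (adjusted p = 0.0426) and CARS2 at -0.58 (adjusted p = 0.0302).

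**Figure D4:**
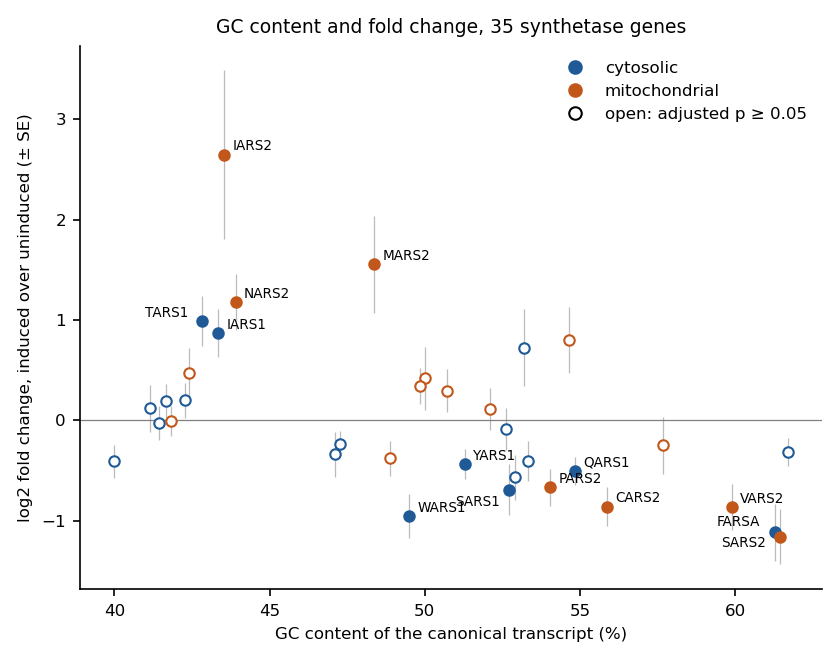
GC content of the canonical transcript in percent against log2 fold change of induced over uninduced, for the 35 synthetase genes with standard errors. Filled points are the 14 called genes. The 5 that rose lie between 42.8% and 48.4% GC and the 9 that fell between 49.5% and 61.4%.

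In the parental line no synthetase gene was called with doxycycline against no doxycycline. Counts were high enough to test 18 of the 19 cytosolic genes (not IARS1) and 12 of the 16 mitochondrial genes (not AARS2, CARS2, MARS2 or PARS2), each among 9124 genes. edgeR called 0% of all genes there, and 267 genes but no member had an unadjusted p below 0.05. DESeq2 called 1 gene, which was no member. The median log2 fold change was -0.08 over the cytosolic and 0.37 over the mitochondrial genes, and -0.01 over all genes. With 3 shallow libraries a group, the 0 calls do not show that levels were alike. The nuclear-retained RNA MALAT1 was at 1310, 311 and 612 CPM with no doxycycline and 129, 126 and 121 CPM with it (log2 fold change -2.57, unadjusted p = 0.000583, adjusted p = 0.997, edgeR), and the mitochondrial genome took 1.76% to 9.38% of gene counts in the former and 3.68% to 5.39% in the latter. Their part in the parental values was not tested. In the transgene line NEAT1 had a log2 fold change of -0.44 (adjusted p = 0.0410, edgeR) and MALAT1 of 0.03. The groups of 3 did not overlap for 4 members (KARS1 higher, and NARS1, TARS2 and YARS2 lower), against 9.52% of all genes in either direction.

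KARS1, the lysyl-tRNA synthetase, had the largest rise, from 54.1, 157 and 94.0 CPM with no doxycycline to 207, 168 and 180 CPM with it (log2 fold change 0.87, SE 0.44, adjusted p = 0.997, edgeR). TARS2 had the largest fall, from 20.9, 14.0 and 12.0 CPM to 3.21, 12.0 and 2.44 CPM (-1.35, SE 0.64, adjusted p = 0.997, edgeR). Neither passed the threshold (unadjusted p = 0.0735 for KARS1 and 0.0585 for TARS2, edgeR), and in both genes the groups did not overlap. For TARS2 this was close to a tie, at 11.98 CPM in untreated replicate 3 and 11.96 CPM in treated replicate 2. IARS2 was at 11.1, 43.3 and 8.09 CPM with no doxycycline and 5.71, 31.5 and 1.63 CPM with it. Replicate 2 was the highest of each group, and the groups overlapped. TARS1 likewise had its highest level in replicate 2, at 291 of 147, 291 and 136 CPM and at 280 of 59.3, 280 and 106 CPM.

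Whether the response differed between the lines was tested as an interaction, in which 34 of the 35 genes could be tested (AARS2 could not). The test called 2.98% of 12265 genes and 0 members, although 10 members had an unadjusted p below 0.05, as did 3197 of all genes. KARS1 had the lowest adjusted p (difference -1.33, SE 0.37, adjusted p = 0.0538, edgeR). It was followed by TARS2 (1.91, 0.0888), SARS2 (-1.87, 0.0889) and YARS1 (-0.91, 0.0967). DESeq2 called these 4, with adjusted p between 0.0128 and 0.0468, and 1489 of 12265 genes in all. Without uninduced 5 edgeR called KARS1 (-1.40), YARS1 (-1.001), IARS2 (4.60), SARS2 (-2.03) and TARS2 (2.16), beside 2290 of 12125 genes. Without induced 2 it called KARS1 (-1.38), SARS2 (-2.08) and TARS2 (2.07), beside 1170 of 12135 genes. Without replicate 2 of the untreated parental group it called KARS1 (-1.63), beside 119 of 12466 genes. Without replicate 2 of the treated parental group it called 6, KARS1 (-1.23), TARS1 (2.13), VARS1 (-0.999), CARS2 (-1.46), SARS2 (-2.07) and TARS2 (3.12). In that fit 1647 of 12412 genes were called. The lines were sequenced on different instruments at different depths, which cannot be told apart from the line.

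**Figure D5:**
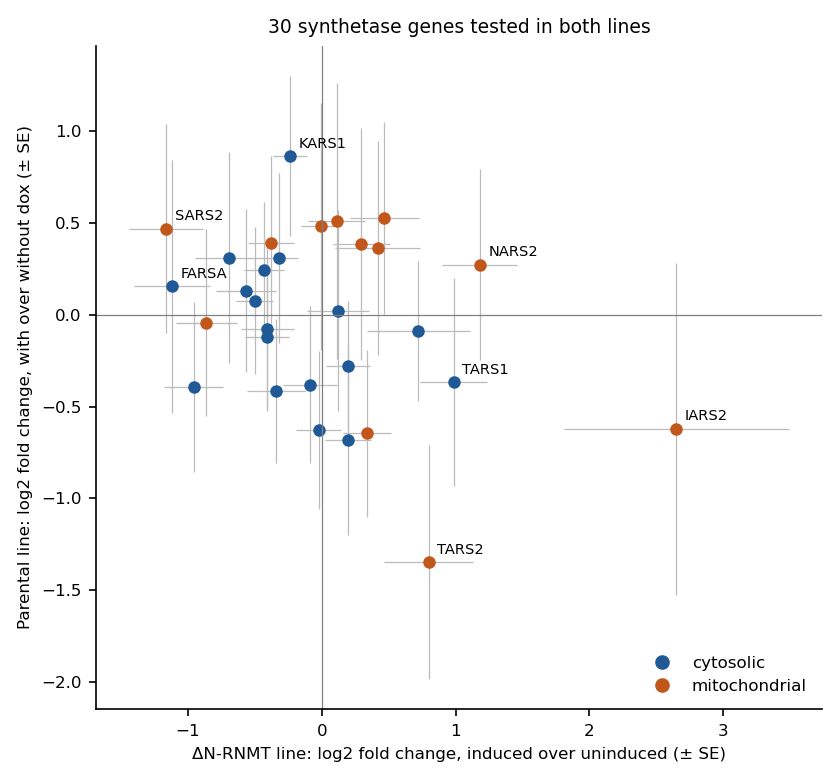
Log2 fold change of induced over uninduced in the ΔN-RNMT line (x axis) against that of doxycycline over no doxycycline in the parental line (y axis), for the 30 synthetase genes tested in both, with bars for the standard error. All y values lie between the -1.35 of TARS2 and the 0.87 of KARS1, and IARS2 is the farthest point on the x axis at 2.65.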

How the data were processed

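The authors deposited raw counts of QuantSeq REV 3′ tags per Ensembl gene, made with Lexogen's GRCh38 pipeline for this kit as the study's methods state. The aligner, annotation release, handling of duplicates and use of strand are not given in the sources used here. Every library also lists 92 spike-in entries, all at 0, and 5 summary entries that name no gene, which were left out; of these, tags with no feature came to 0.0744 to 0.106 per gene count in the transgene line and 1.11 to 1.50 in the parental line, and tags without a unique place to 0.561 to 1.33 and 0.773 to 1.44. GENCODE release 44 named 56104 of 60107 genes. The ΔN-RNMT libraries came from separate dishes of 1 clone, so p-values measure the spread between dishes.

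Within each line, edgeR 4.0.16 in R 4.3.3 was run on genes whose base mean exceeded 20 (TMM, quasi-likelihood, Benjamini-Hochberg at 0.05), with a joint fit for the interaction. CPM used TMM library sizes, and the summed marker levels used total gene counts. The steps were tested on simulated data. Alternatives used DESeq2 1.42.0 and sva 3.50.0, other scalings and filters, GC offsets, replicate number as a block, and each library left out. Leaving out uninduced 5 and induced 2 together was chosen after seeing the data.

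Members called or not overlapping in induced against uninduced were named with every library, and the largest parental rise and fall and any call between the lines were named too. Other members are given by fold change, and listed genes of related function when called. MARS1 and TARS2 in the transgene line, IARS2 and TARS1 in the parental line and uncalled listed genes were given values after these were seen. The members and lists were chosen with earlier results of these data known.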

Additional observations from a re-analysis of the deposited data

Results flagged for a closer look

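In 7 of 70 groups of 5 libraries (35 genes in uninduced and in induced cells) 1 library stood apart from the other 4 by Dixon's test on log2 CPM, in which its gap to the nearest library exceeded 0.71 of the range. For independent, normally distributed values this cutoff flags about 5% of groups. The 70 groups share the same libraries and are not independent, and the share flagged over all genes was not computed. Of the 7, 4 were uninduced 5. It was the highest for TARS1, at 138 CPM against 86.7 to 94.3 CPM, and for IARS2, at 66.8 CPM against 4.89 to 7.02 CPM. It was the lowest for AARS2, at 0.738 CPM against 1.57 to 1.75 CPM, and for PARS2, at 4.30 CPM against 6.25 to 6.73 CPM. Induced 2 was the lowest for NARS2, at 2.63 CPM against 6.12 to 8.02 CPM. Induced 5 was the lowest for MARS1, at 69.0 CPM against 129 to 156 CPM. Uninduced 3 was the highest for HARS1, at 14.7 CPM against 7.72 to 8.79 CPM.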

How the results depend on the processing

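Across 19 other ways of processing, the 14 called members kept the sign of their fold change in each, and 5 of them (TARS1, WARS1, CARS2, NARS2 and SARS2) stayed past the threshold in each but the fit with 1 surrogate variable. In that fit 0 cytosolic and 0 mitochondrial members were called higher or lower. RNMT was the 1 gene of all that was called (log2 fold change 2.02, adjusted p = 0.0201, edgeR). The medians were 0.00708 and -0.0241, opposite in sign to those reported. Scaling by total counts, which set the median of all genes to 0.28, called 4 cytosolic members higher and 2 lower, with medians of -0.0845 and 0.42, and moved the share of all calls that were higher from 50.2% to 74.2%. Cytosolic members called lower were 8 with DESeq2, 3 with no filter and 3 with GC offsets, where 3443 genes in all were called against 5183. With GC offsets and the replicate block 2 cytosolic and 2 mitochondrial members were lower. Without uninduced 5 and induced 2 there were 11 cytosolic members lower and 6 mitochondrial members higher, with 8329 genes called in all. DESeq2 called 4 members for the difference between the lines. The cause of these differences was not tested.

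Leaving out 1 library at a time gave 1 to 3 cytosolic members higher, 2 to 9 lower, 1 to 6 mitochondrial members higher and 2 to 5 lower, with 1869 to 7604 genes called in all. The lowest total was without induced 1 and the highest without uninduced 5. The difference between the lines gave 0 to 6 members, and 0 to 2290 of all genes, the latter without uninduced 5, against the 365 reported, 1489 with DESeq2, 236 with its size factors, 150 with no filter and 3 with filterByExpr. In the parental comparison 0 members were called under any alternative run.

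The main fit did not treat same-numbered libraries as pairs. Deviations of same-numbered transgene libraries correlated at 0.0260 on average (-0.373 to 0.625), and 1 of 5 libraries correlated best with its own number. In the parental line the values were -0.0598 (-0.420 to 0.237) and 1 of 3. So few pairs, with so wide a range, cannot tell whether the numbers mark pairs. With replicate number as a block 2 cytosolic members were higher and 4 lower, 3 mitochondrial members were higher and 4 lower, and 5188 genes were called. Depth and 3 libraries a group limit the parental comparison and the difference between the lines, and 5 members were too low to test in the former.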
